A study of Mus musculus with 12 samples.

Results

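Reelin signalling was read through 8 genes in the mouse cerebral cortex at embryonic day 15.5: the ligand Reln, the receptors Vldlr and Lrp8, the adaptor Dab1, the signalling proteins Crk, Crkl and Rapgef1 downstream of Dab1, and Pafah1b1, which encodes Lis1. They are known pathway genes, found by symbol with no measured value in the rule, though the list was drawn up with earlier results of these data known. All 8 were found among the 51912 genes of the count files and passed the filter on low counts. The 12 libraries came from 12 embryos, 1 library each. The 6 mutants were labelled as Emx1-Cre conditional mutants of Arid1a, which encodes a subunit of BAF chromatin remodelling complexes, and the 6 controls carry no further allele in the labels. Emx1-Cre recombines in dorsal forebrain progenitors and the cells they give rise to, so that cells of other origin in the same dissection keep Arid1a. Litter 1 gave 2 mutants (both female) and 4 controls (1 female and 3 males). Litter 2 gave 4 mutants (3 females and 1 male) and 2 controls (1 female and 1 male), so genotype overlapped in part with litter and with sex.

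Reelin is a large secreted glycoprotein that, in the developing cortex, is made chiefly by Cajal-Retzius cells beneath the pial surface. It binds the very low density lipoprotein receptor (Vldlr) and the apolipoprotein E receptor 2 (Lrp8) on migrating neurons, and the Src-family kinases Fyn and Src then phosphorylate the intracellular adaptor Dab1. Phosphorylated Dab1 recruits Crk and Crkl with the exchange factor C3G (Rapgef1), which activates the small GTPase Rap1 and through it cadherin adhesion, and it also engages PI3 kinase and Lis1, a regulator of the dynein motor. Loss of Reln, of Dab1 or of both receptors disturbs the order of the cortical layers.

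The stretches around the annotated starts of Reln and Dab1 are shown because these were the members with the largest differences between the groups and the widest spread between embryos, and because the annotated Dab1 starts lie far apart. Sequences are from RefSeq (GRCm38.p6, the assembly of mm10), 250 bases before to 50 bases after a start, on the strand of the gene. Capitals mark the GC box GGGCGG, searched on both strands (CCGCCC on the other).
Reln, chr5:22344656-22344955, minus strand: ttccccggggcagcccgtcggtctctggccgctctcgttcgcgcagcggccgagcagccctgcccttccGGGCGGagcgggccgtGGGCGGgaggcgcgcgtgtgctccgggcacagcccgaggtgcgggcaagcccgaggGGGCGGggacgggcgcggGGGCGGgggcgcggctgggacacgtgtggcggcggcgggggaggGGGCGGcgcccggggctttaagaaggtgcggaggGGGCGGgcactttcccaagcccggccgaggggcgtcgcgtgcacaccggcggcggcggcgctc
Dab1 first start, chr4:103619250-103619549, plus strand: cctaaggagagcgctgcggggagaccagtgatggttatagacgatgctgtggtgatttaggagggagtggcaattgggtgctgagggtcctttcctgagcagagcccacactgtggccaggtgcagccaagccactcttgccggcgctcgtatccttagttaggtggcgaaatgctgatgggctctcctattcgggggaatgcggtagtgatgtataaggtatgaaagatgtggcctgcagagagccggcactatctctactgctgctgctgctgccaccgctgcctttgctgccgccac
Dab1 second start, chr4:104367288-104367587, plus strand: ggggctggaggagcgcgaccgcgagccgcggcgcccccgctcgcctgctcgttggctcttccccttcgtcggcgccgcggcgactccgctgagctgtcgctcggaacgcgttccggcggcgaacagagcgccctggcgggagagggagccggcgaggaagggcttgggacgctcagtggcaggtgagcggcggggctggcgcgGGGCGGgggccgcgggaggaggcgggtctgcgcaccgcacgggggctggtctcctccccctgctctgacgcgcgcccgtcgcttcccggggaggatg
The Reln window held 6 GC boxes and 47 CpG dinucleotides, more CpG than 98.6% of 32851 windows of 300 bases, whose median was 7. The second Dab1 window held 1 GC box and 46 CpG (98.4th percentile). The first Dab1 window, 748 kb upstream, held no GC box and 12 CpG (60.4th percentile). Of the 12 windows listed for the 8 genes, 5 held a GC box, against 35.7% of all windows. None held TATAAA on either strand, against 13.6% of all windows, and the 2 motifs share no letter, so that they cannot overlap. Nothing was measured at these starts, and a gene total does not separate RNA from the 2 Dab1 starts.

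Counts on genes ran from 643197 to 3525121 per library, and mutants 1, 4, 2 and 6 were the 4 shallowest. Levels are CPM: counts set to the same library size, with the TMM correction for library composition. The mutants had 396 to 525 CPM of Arid1a and the controls 464 to 575 CPM, with a fitted log2 fold change of -0.30 (SE 0.0958) that did not pass (edgeR adjusted p = 0.277). Its gene total pools all reads assigned to the gene and does not show the loss of part of the gene. Markers of cortical projection neurons were present in every library, with a summed level of 2179 to 2941 CPM over 8 genes in mutants and 2677 to 4306 CPM in controls. Of 8 radial glia markers, Sox2 had 0 counts in all 12 libraries. Sox2 lies within the span of the long noncoding gene Sox2ot on the same strand, and Sox2ot had 26048 counts, so a count of 0 here is not evidence that Sox2 was not transcribed. Markers of the striatum, which borders the cortex, varied widely, from 65.0 to 1020 CPM summed over 11 genes in controls and from 103 to 1133 CPM in mutants. Ebf1, 1 of the 11, ran from 41.1 to 947 CPM over the 12 libraries. Of 8 markers of the cortical hem, choroid plexus and meninges 5 had a mean under 1 CPM, and their sum was 192 CPM in control 5, of which Ttr made up 165, and at most 18.8 CPM in any other library.

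No member of the pathway passed the test for genotype. The test was edgeR's quasi-likelihood test on 10678 genes in a model of genotype adjusted for litter and sex. Its threshold was a Benjamini-Hochberg adjusted p under 0.05, at which 0.215% of all genes passed. Of the 8 members 0 passed, 0 had an unadjusted p under 0.05 (8.78% of all genes did), and DESeq2 and limma-voom also called 0, with Reln under 0.05 before adjustment in DESeq2. In none of the 8 did the 6 mutants lie outside the range of the 6 controls, as they did in 1.26% of all genes. The median log2 fold change of the 8 was 0.01, with 4 positive and 4 negative values, and that of all genes tested was -0.00088.

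**Figure D1:**
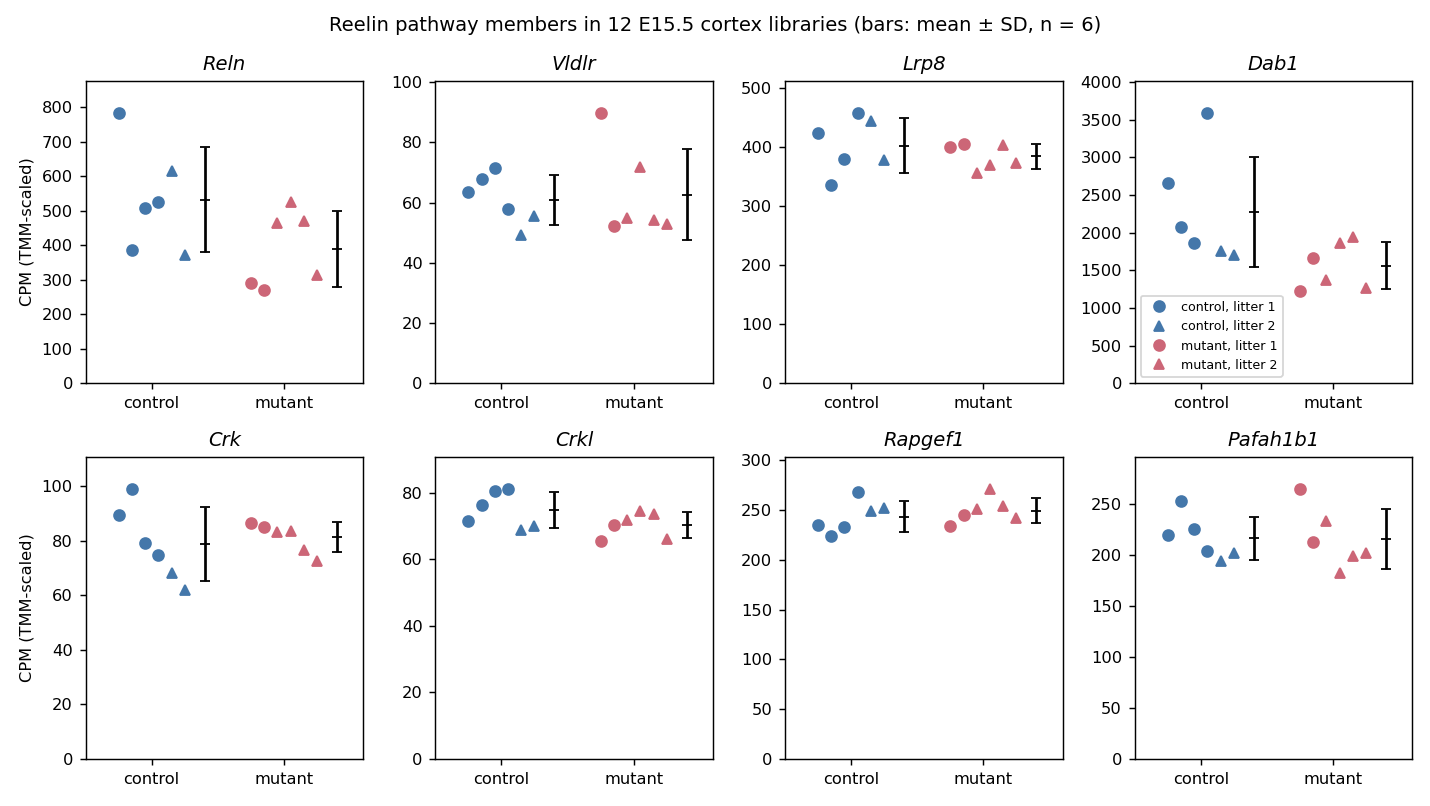
CPM of the 8 members in each of 12 libraries, with controls in blue, mutants in red, circles for litter 1 and triangles for litter 2; black bars are the mean ± SD of 6 libraries and every axis starts at 0. Reln and Dab1 vary most between libraries, Crkl and Rapgef1 least, and the mutants overlap the controls in all 8 panels.

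Reln, the ligand (ENSMUSG00000042453.14, mm10 chromosome 5, 21884454 to 22344702, minus strand), had a lower mean in mutants, and its libraries overlapped. Controls 1 to 6 had 782, 387, 509, 527, 616 and 373 CPM of Reln. Mutants 1 to 6 had 290, 269, 465, 527, 471 and 313 CPM. Control 1 was the highest of the 12 libraries, all 6 mutants lay below the control mean, and 3 mutants lay below all 6 controls. Control 5, the second highest, was the library with the high hem, choroid plexus and meninges sum, and without it the Reln log2 fold change was -0.51. The mutant mean of Reln was 389 ± 111 CPM and the control mean 532 ± 153 CPM (n = 6 each, ± SD). The fitted log2 fold change was -0.52 (SE 0.294, 95% interval -1.18 to 0.14, edgeR adjusted p = 0.701), so the interval included 0 and the difference did not pass. In bulk tissue fewer Reelin-producing cells and less Reln RNA per cell cannot be told apart.

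The Reln difference was uneven over the litters. In litter 1 both mutants (269 and 290 CPM) lay below all 4 controls (387 to 782 CPM), and in litter 2 the 4 mutants (313 to 527 CPM) overlapped the 2 controls (373 and 616 CPM). A fit to litter 1 alone gave Reln a log2 fold change of -1.49 (SE 0.210, edgeR adjusted p = 0.0266), in a fit that called 5 of 11204 genes (0.0446%), Reln among them and no other member. Litter 2 alone gave 0.02 (SE 0.177, adjusted p = 0.996). With the sex term, the value for litter 1 rests on control 1, the only female control of that litter, a lone library assumed to vary like the others. Without control 1 the Reln value over both litters was -0.07 (adjusted p = 0.975), and without control 6 it was -0.93 (adjusted p = 0.336). The interaction of genotype and litter, which tests the difference between the litters itself, was 0.83 for Reln (SE 0.466, 95% interval -0.23 to 1.89, adjusted p = 0.761) and did not pass.

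The receptors did not pass the test for genotype, and the 95% intervals of both included 0. Vldlr (ENSMUSG00000024924.14, chromosome 19, 27216484 to 27254231, plus strand) was the member with the fewest counts, 1345 over the 12 libraries. Its controls ran from 49.2 CPM to 71.6 CPM with a median of 60.7, and its mutants from 52.1 CPM to 89.6 CPM with a median of 54.6. Mutant 1, the shallowest library, was the highest of all 12 with 59 counts behind that level. The Vldlr log2 fold change was 0.16 (SE 0.150, 95% interval -0.16 to 0.47, adjusted p = 0.851), and it was -0.08 without the 2 shallowest libraries, mutants 1 and 4. Lrp8 (ENSMUSG00000028613.14, chromosome 4, 107802261 to 107876840, plus strand) held 8873 counts over the 12 libraries. Its controls ran from 336 to 457 CPM with a median of 401, and its mutants from 356 to 405 CPM with a median of 387, so that every mutant lay inside the control range. The Lrp8 log2 fold change was -0.07 (SE 0.106, 95% interval -0.29 to 0.16, adjusted p = 0.942), which bounds a change in either direction more closely than for Reln.

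Dab1, the adaptor (ENSMUSG00000028519.16, chromosome 4, 103619359 to 104744844, plus strand), had the most counts of the members, 45260, over a gene of 1125 kb. Controls 1 to 6 had 2658, 2074, 1859, 3583, 1757 and 1700 CPM of Dab1. Mutants 1 to 6 had 1231, 1667, 1375, 1869, 1944 and 1269 CPM. Controls 4 and 1 were the 2 highest libraries, all 6 mutants lay below the control mean, and 4 of them lay below all controls. The mutant mean of Dab1 was 1559 ± 310 CPM and the control mean 2272 ± 731 CPM (n = 6 each, ± SD). The fitted log2 fold change was -0.37 (SE 0.237, 95% interval -0.89 to 0.15, edgeR adjusted p = 0.737), and without litter and sex terms it was -0.54 (adjusted p = 0.222). As for Reln, both mutants of litter 1 (1231 and 1667 CPM) lay below the 4 controls of that litter (1859 to 3583 CPM), and in litter 2 the 4 mutants (1269 to 1944 CPM) spanned the 2 controls (1700 and 1757 CPM). Litter 1 alone gave Dab1 -0.88 (adjusted p = 0.682), again against control 1, litter 2 alone gave -0.05 (adjusted p = 0.971), and the interaction was 0.67 (SE 0.402, adjusted p = 0.773). Without control 1 the Dab1 value was -0.22, and without mutant 1 it was -0.23.

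Crk, Crkl and Rapgef1, which carry the signal from Dab1 to Rap1, did not pass the test for genotype, and their 95% intervals included 0. Crk (ENSMUSG00000017776.15, chromosome 11, 75679259 to 75706908, plus strand) ran from 62.1 to 98.9 CPM in controls with a median of 76.9, and from 72.5 to 86.6 CPM in mutants with a median of 83.3. All mutants of Crk lay within the control range, and the log2 fold change was 0.18 (SE 0.121, 95% interval -0.07 to 0.44, adjusted p = 0.737), or 0.08 without control 6. Its close relative Crkl (ENSMUSG00000006134.3, chromosome 16, 17451987 to 17487434, plus strand) ran from 68.8 to 81.0 CPM in controls with a median of 73.9, and from 65.3 to 74.5 CPM in mutants with a median of 71.0. As for Reln and Dab1, all 6 mutants lay below the control mean of Crkl (74.7 CPM), and 2 lay below all controls. The Crkl log2 fold change was -0.01 (SE 0.107, 95% interval -0.23 to 0.22, adjusted p = 1.00). Rapgef1, the guanine nucleotide exchange factor for Rap1 (ENSMUSG00000039844.19, chromosome 2, 29619720 to 29740978, plus strand), ran from 224 to 268 CPM in controls with a median of 242, and from 234 to 271 CPM in mutants with a median of 248. Its log2 fold change of 0.04 had the narrowest interval of the 8 members (SE 0.0866, 95% interval -0.15 to 0.22, adjusted p = 0.976).

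Pafah1b1, which encodes Lis1 (ENSMUSG00000020745.15, chromosome 11, 74673949 to 74724670, minus strand), is the gene whose mutation in humans causes lissencephaly, a cortex with few folds. Its controls ran from 194 to 252 CPM with a median of 211, and its mutants from 182 to 264 CPM with a median of 207. Mutant 1 was the highest and mutant 4 the lowest of all 12 libraries, and both are shallow. The mutant and control means were 215 ± 29.2 and 216 ± 21.2 CPM (n = 6 each, ± SD), and the fitted log2 fold change was 0.03 (SE 0.104, 95% interval -0.19 to 0.25, adjusted p = 0.985).

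**Figure D2:**
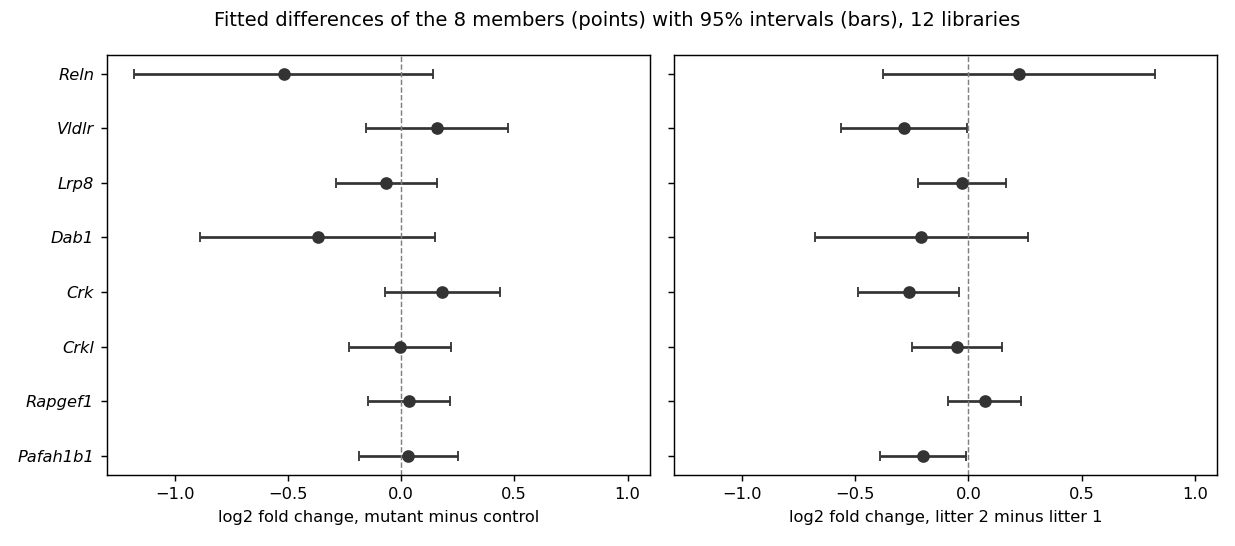
Fitted log2 fold changes of the 8 members (points) with 95% intervals (bars), for mutant minus control on the left and litter 2 minus litter 1 on the right. For genotype every interval crosses 0, with Reln (-1.18 to 0.14) and Dab1 (-0.89 to 0.15) the widest, and for litter the intervals of Vldlr, Crk and Pafah1b1 lie just below 0 before adjustment.

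The members differed in how much they varied between embryos of one genotype. The coefficient of variation of Reln was 28.7% in controls and 28.4% in mutants, where counting error alone would give 3.16 and 5.18%. Dab1 varied by 32.2% in controls and 19.9% in mutants, against counting errors of 1.53 and 2.49%. The highest library held 2.90 times the lowest for Reln and 2.91 times for Dab1. Crkl varied by 7.21% in controls and 5.48% in mutants, less than its counting errors of 8.10 and 11.5%, so that no spread between embryos was detectable at this depth. Rapgef1 varied by 6.46 and 5.10% against counting errors of 4.49 and 6.09%. The fitted variation between libraries beyond counting was above that of 91.6% of genes for Reln and 88.5% for Dab1, and above 2.88% for Crkl, 14.6% for Rapgef1 and 23.1% for Crk.

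No member passed for litter, sex or the interaction of genotype and litter. For litter 2 against litter 1, 1.31% of genes passed in edgeR and 0 of 8 members did. Before adjustment 3 of 8 had a p under 0.05, against 15.4% of all genes, and all 3 were lower in litter 2. Crk ran from 62.1 to 83.5 CPM in litter 2 and from 74.7 to 98.9 CPM in litter 1, and its litter log2 fold change was -0.26 (SE 0.106, edgeR adjusted p = 0.239). Pafah1b1 had -0.20 (SE 0.0900, adjusted p = 0.297) and Vldlr -0.28 (SE 0.133, adjusted p = 0.314). DESeq2 called 0 of 8 for litter with 1 under 0.05 before adjustment (Crk), and limma-voom called 0 with 2 (Crk and Pafah1b1). For male against female 0.00937% of genes passed, a single gene, and 0 of 8 members passed or had an unadjusted p under 0.05 in edgeR, DESeq2 or limma-voom. For the interaction 0% of genes passed, and 0 of 8 members had an unadjusted p under 0.05.

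Dab1 had by far the highest level of the members when gene totals were divided by exon length, and this order depended on the length used. Per kb of the exons of all annotated transcripts, the control means were 287 CPM for Dab1, 38.3 for Lrp8, 33.0 for Rapgef1, 22.5 for Pafah1b1, 22.4 for Reln, 16.6 for Crk, 14.8 for Crkl and 6.05 for Vldlr. In this order the 6 controls of Dab1 lay above those of Lrp8, those of Rapgef1 above those of Pafah1b1, and those of Crkl above those of Vldlr, and all other neighbours overlapped. Only 0.703% of the Dab1 span is exon, and 5.16% of that of Reln. Per kb of the whole span the order became Lrp8 (5.40 CPM), Pafah1b1 (4.26), Crk (2.85), Crkl (2.11), Dab1 (2.02), Rapgef1 (2.01), Vldlr (1.61) and Reln (1.16), and only the neighbours Pafah1b1 and Crk did not overlap. The rank correlation of the 2 orders was 0.310 over 8 genes. RNA was ribosome-depleted total RNA, which holds unspliced transcripts, and whether intronic reads were counted is not given in the sources used here. Reads in no annotated feature took only 4.89% (mutant 3) to 6.83% (mutant 1) of a file, and the counting of introns was not tested. If introns were counted, division by exon length overstates the level of genes with long introns, such as Dab1. Over 10232 protein-coding genes, log2 control CPM had a slope of 0.498 on log2 exon length and 0.384 on log2 span. Vldlr lay below Lrp8 on both scales. Other annotated genes within the members' spans held few counts, at most 13 over all libraries (Lrp8os2).

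**Figure D3:**
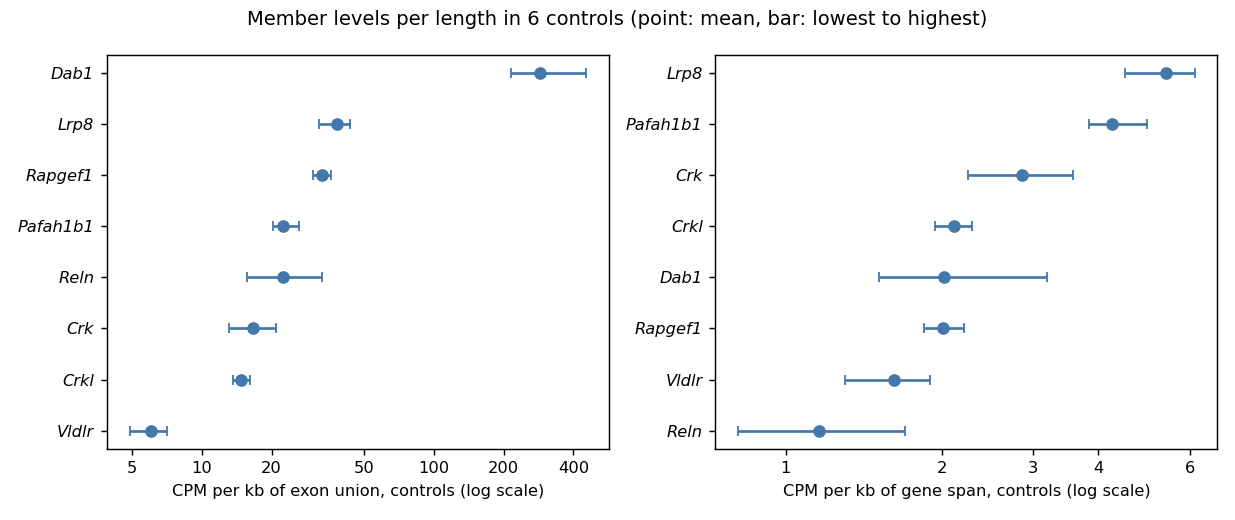
Mean level of the 8 members in 6 controls (points) with the lowest and highest control (bars), in CPM per kb of exon union on the left and per kb of gene span on the right, on log axes. Dab1 leads the exon scale (287) but not the span scale (2.02), where Reln comes last (1.16).

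Reln moved with the markers of the cells that make it. The summed level of 8 Cajal-Retzius markers (Trp73, Lhx1, Lhx5, Ebf3, Ndnf, Nhlh2, Cacna2d2 and Calb2) ran from 63.6 to 167 CPM in controls with a median of 114, and from 56.2 to 153 CPM in mutants with a median of 103. Lhx1 and Lhx5 were at 0 counts in 2 and 3 libraries, and 0 of the 6 markers tested passed for genotype. Of these 6, 2 had positive and 4 had negative genotype values, from -0.80 for Nhlh2 to 0.60 for Ebf3. The mean of Ebf3 was 21.6 CPM in controls and 40.8 CPM in mutants, and that of Nhlh2 was 11.3 and 6.84 CPM. Control 1 had the highest sum, 167 CPM, as it had the highest Reln. Over the 12 libraries the Spearman rho of Reln with this sum was 0.82 (permutation p = 0.00186, adjusted p = 0.0298) and Pearson's r of the log2 values was 0.72 (permutation p = 0.00836, adjusted p = 0.0669), where adjustment was over 16 relations, 8 members by 2 marker sums. The r was 0.68 without control 2 and mutant 1, the 2 libraries farthest from the median sum. Within litters r was 0.81 and 0.57 (n = 6 each), within controls 0.97 and within mutants 0.74. A Cajal-Retzius score was also taken, the mean standardized log2 CPM of the 6 markers tested, which is not the sum. With this score as a further covariate, added after the data were seen, the Reln genotype value was -0.38 (SE 0.137, edgeR adjusted p = 0.326).

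Dab1 tended to be lower where the striatum markers were higher, a relation that did not pass after adjustment. Controls 4 and 1, highest in Dab1, had the 2 lowest striatum sums, 65.0 and 66.0 CPM, and mutant 6, second lowest in Dab1, had the highest, 1133 CPM. Control 2 went the other way, with a high sum of 1020 CPM and 2074 CPM of Dab1. Pearson's r of Dab1 with the striatum sum was -0.71 (permutation p = 0.00724, adjusted p = 0.0669), and Spearman's rho was -0.57 (permutation p = 0.0552, adjusted p = 0.126), so neither passed after adjustment. The r was -0.82 without control 2 and mutant 6, -0.73 in litter 1 and -0.88 in litter 2. Other members had similar values with the same sum: Lrp8 r = -0.67 (adjusted p = 0.0702), Rapgef1 -0.62 (0.0992) and Reln -0.60 (0.104). Pafah1b1 had r = -0.68 with the Cajal-Retzius sum (adjusted p = 0.0702), and -0.23 without control 2 and mutant 1. Of the 16 relations 0 passed by permutation of Pearson's r, and 1, Reln with the Cajal-Retzius sum, by Spearman's rho. A striatum score was also taken, the mean standardized log2 CPM of the 6 markers that were tested, which is not the sum. With this score as a covariate the genotype values were -0.29 for Reln and -0.20 for Dab1. All 6 striatum markers that were tested and all 10 interneuron markers had positive genotype values, with 0 called, and the median interneuron sum was 907 CPM (mutants) and 480 CPM (controls). The share of the Reln and Dab1 differences that goes with tissue composition was not tested beyond these fits. Among the 28 pairs of members, a family added after the data were seen, 0 passed after adjustment by Pearson's r or Spearman's rho.

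**Figure D4:**
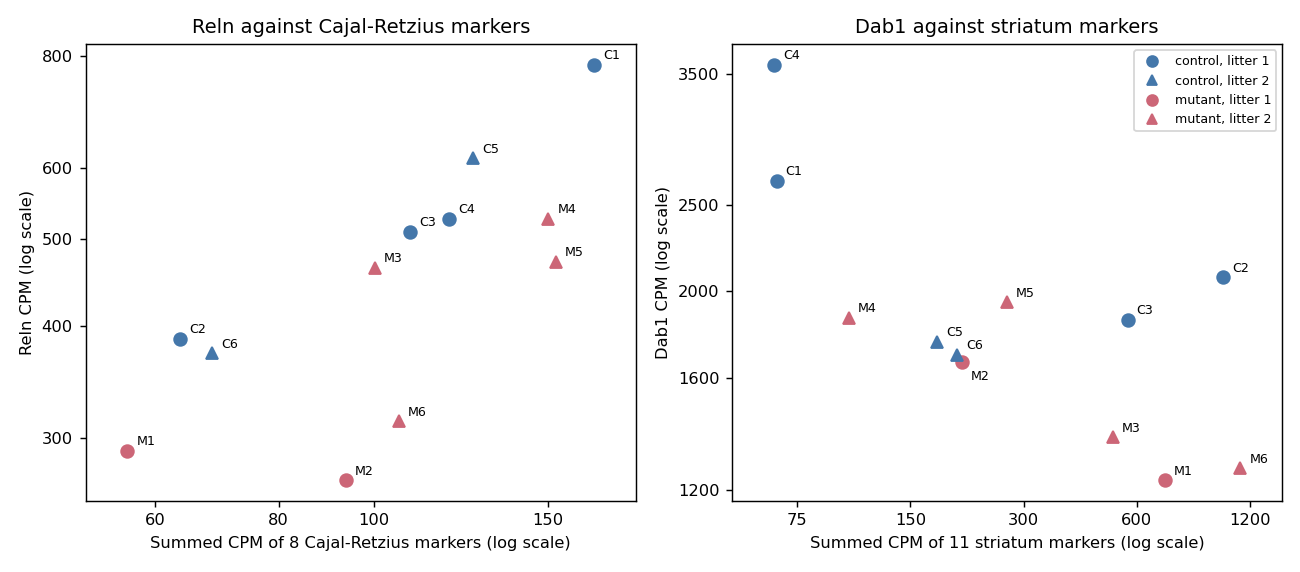
Left, Reln CPM against the summed CPM of 8 Cajal-Retzius markers; right, Dab1 CPM against the summed CPM of 11 striatum markers, one point per library on log axes, labelled C for control and M for mutant with the replicate number. Reln is high where the Cajal-Retzius sum is high (rho 0.82), with control 1 at the top right, and Dab1 is highest in controls 4 and 1, which have the lowest striatum sums. Control 2 goes the other way, with a striatum sum of 1020 CPM and 2074 CPM of Dab1.

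The genes whose log2 CPM followed each member most closely over the 12 libraries are given as a description. They were taken from 6860 genes with a mean of at least 20 CPM, with Gm, Rik, Mir and clone-style names left out. For Reln they were Vrk2 (r = 0.90), Ubxn2a (0.88) and Onecut2 (0.84). For Dab1 they were Sh3gl2 (r = 0.93), which encodes an endophilin of synaptic vesicle recycling, March4 (0.91) and Khdrbs2 (0.90). Vldlr was followed by Ablim3 (r = 0.91), Pdss1 (0.91) and Mfap3 (0.89), and Lrp8 by Mmd2 (0.86), Tspan18 (0.86) and Vps37b (0.85). Crk was followed by Dis3l (r = 0.94), Nr6a1 (0.86) and Usp9x (0.84), and Crkl by Jade3 (0.91), Sec24b (0.85) and Snapc1 (0.84). Rapgef1 was followed by Ggnbp1 (r = 0.87), Ergic3 (0.86) and Slc2a1 (0.86), and Pafah1b1 by Tmem170b (0.93), the integrin subunit gene Itgb1 (0.92) and Snx2 (0.91). No member was among the 3 closest genes of another.

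Of 71 genes of the wider pathway in 7 lists, 66 were tested for genotype and 0 passed in edgeR. Before adjustment 7 of them (10.6%) had a p under 0.05, against 8.78% of all genes, and in 2 (3.03%), Cdh2 and Dync1i1, all 6 mutants lay outside the control range, against 1.26% of all genes. Their median log2 fold change was -0.02, with 29 positive and 37 negative values.

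Dync1i1, an intermediate chain of the dynein motor that Lis1 regulates (chromosome 6, 5725639 to 6028039, plus strand), had the largest difference of the wider pathway. Controls 1 to 6 had 456, 525, 341, 820, 292 and 380 CPM of Dync1i1, and mutants 1 to 6 had 141, 143, 145, 175, 156 and 118 CPM. The highest mutant lay well below the lowest control in both litters. The mutant mean was 146 ± 18.6 CPM and the control mean 469 ± 191 CPM (n = 6 each, ± SD). The fitted log2 fold change of -1.42 (SE 0.267) missed the threshold (edgeR adjusted p = 0.0835). It passed in 11 of 28 alternatives, among them DESeq2 (adjusted p = 3.31e-05), limma-voom (0.0306), litter 2 alone (-1.18, 0.0129), females alone (9.35e-05) and without control 4 (0.00224), and over all alternatives the adjusted p ran from 3.31e-05 to 0.562. The paralogous chain Dync1i2 had mean levels of 237 CPM (mutants) and 255 CPM (controls) with a fitted log2 difference of -0.03 (SE 0.136, adjusted p = 0.997). Of the 13 tested Lis1 and dynein partners 0 passed, with a median of -0.02.

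Among 11 Rap1 and adhesion effectors 0 passed, 9 were negative, and the median was -0.08. Cdh2, the N-cadherin through which Rap1 acts in migrating neurons, ran from 1226 to 1413 CPM in mutants and, without overlap, from 1562 to 1746 CPM in controls. The Cdh2 log2 fold change was -0.31 (SE 0.0916, edgeR adjusted p = 0.217). It passed in 3 of 28 alternatives, DESeq2 (adjusted p = 0.000136), no filter (0.0477) and no covariates (0.0457). The nectins, which join Cajal-Retzius cells and migrating neurons, had opposite signs, with Nectin3 at -0.33 (SE 0.111, adjusted p = 0.306) and Nectin1 at 0.41 (SE 0.118, adjusted p = 0.212). Of 14 PI3 kinase, Akt and cytoskeletal effectors 0 passed and 9 were negative, with a median of -0.04.

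Of 4 tested proteases that can cleave Reelin 0 passed. Adamts3, which inactivates Reelin by cleavage, had means of 360 ± 72.5 CPM (mutants) and 263 ± 62.7 CPM (controls, ± SD, n = 6 each) with a fitted log2 difference of 0.33 (SE 0.140, edgeR adjusted p = 0.498), or 0.15 without mutant 4. Furin, a proprotein convertase, had -0.52 (SE 0.239, adjusted p = 0.544) at 15.7 CPM (mutants) and 21.8 CPM (controls), or -0.33 without control 1. Its lowest library, mutant 1, held 7 counts of Furin. Of 10 tested genes for other receptor ligands and receptor turnover 0 passed and 6 were positive, with Thbs1, a secreted ligand of both receptors, at 0.34 (adjusted p = 0.661). The 12 kinases and degradation factors of Dab1 had 0 called and a median of 0.03. Elob, a component of the ubiquitin ligase that removes phosphorylated Dab1, had -0.42 (SE 0.263, adjusted p = 0.720), a value that became 0.43 without control 6. Cdk5r1, the activator of the kinase Cdk5 that acts beside Reelin in neuronal migration, had 0.27 (SE 0.116, adjusted p = 0.491), and Cdk5 itself did not pass.

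**Figure D5:**
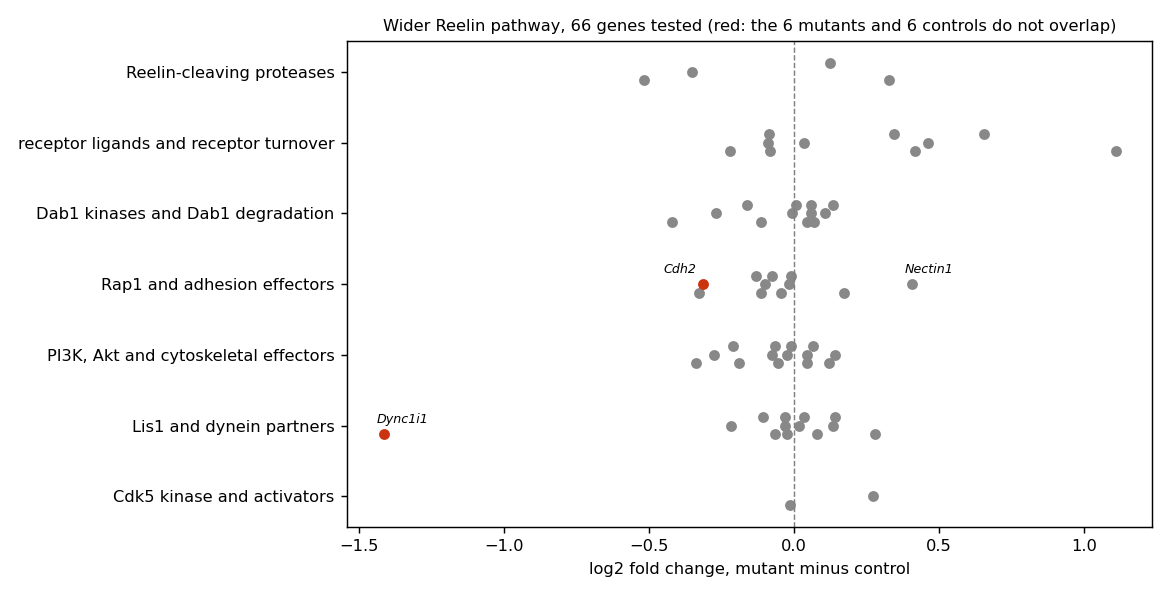
Log2 fold change, mutant minus control, of the 66 tested genes of the wider pathway, one point per gene, by list; red points are genes whose 6 mutants and 6 controls do not overlap. Dync1i1, at -1.42, lies farthest to the left, and Cdh2 (-0.31) is the other red point.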

How the data were processed

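Total RNA of micro-dissected cortex was depleted of ribosomal RNA and made into ClickSeq libraries with molecular tags (UMIs), per the labels' protocols. Per the submitters' processing notes, the build was mm10 and the tools were STAR 2.5.2a, HTSeq 0.6.1p1, cutadapt 1.13, UMI-tools 0.5.3, edgeR 3.20.9 and bcl2fastq 2.17. Not given in the sources used here are the order of the tools, the annotation release, whether introns were counted and whether strand was used. Each deposited table holds unnormalized counts of 1 library per Ensembl gene. The 5 closing entries that name no gene took 20.7 to 31.6% of a file and were left out.

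Symbols and coordinates are from GENCODE M21 (GRCm38): 47648 identifiers matched with their version, 3985 without it (Crkl among them) and 279 not at all. Genes were filtered with filterByExpr (minimum count 10) then modelled in R 4.3.3 by edgeR 4.0.16, using TMM, estimateDisp, glmQLFit with robust = TRUE, and 8 residual degrees of freedom. Other tests were limma-voom (limma 3.58.1) and DESeq2 1.42.0. The SE is the log2 fold change divided by the square root of F. Correlations used log2(CPM + 0.5) and 100000 two-sided permutations. The scripts were tested on simulated data. Counting errors assume independent reads and cover counting only. Replicate numbers follow accession order and pair no libraries.

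Members and lists were chosen with earlier results of these data known. Genes named are the 8 members, Arid1a, up to 3 genes with the smallest genotype p of each wider list, 3 genes most like each member, and markers needed to describe a list. Of those 3 per list, the text names the ones with an unadjusted p under 0.05 and the smallest of 2 further lists, and Cdk5, Dync1i2 and Lrp8os2 were named after their values were seen. Alternatives covered scaling, filter, covariates, litter, sex, depth, other tests and each library left out. A further gene of the wider lists is not reported here.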

Additional observations from a re-analysis of the deposited data

Results flagged for a closer look

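The genes examined were the 8 members, Arid1a, Dync1i1, Dync1i2, Nectin1, Nectin3, Cdh2, Adamts3, Furin, Cdk5r1, Elob and Thbs1. Markers and the other named genes were not examined. In each genotype's 6 libraries, the highest and lowest value of each gene was set against the rest. The measure was the gap to the nearest library divided by the whole range. Of 38 such groups 2 held a library that stood apart, and chance gives about 1 in 20. Cdk5r1, the activator of Cdk5, stood at 385 CPM in mutant 4, and the other 5 mutants ran from 292 to 316 CPM (gap over range 0.741). Elob, a component of the ubiquitin ligase for Dab1, stood at 60.3 CPM in control 6, and the other 5 controls ran from 16.3 to 23.7 CPM (gap over range 0.830). None of the 8 Reelin pathway members had a library that stood apart in this way.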

How the results depend on the processing

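The count of members called for genotype was 0 in 27 of 28 alternatives and 1 in litter 1 alone (Reln, -1.49, among 5 of 11204 genes called), where control 1 is the only control that informs genotype. The counts for litter, sex and interaction stayed at 0 wherever they were run. Reln had 0.021 in litter 2 alone, and the cause was not tested. Leaving out 1 library gave -0.93 to -0.07 for Reln, -0.49 to -0.22 for Dab1, -0.043 to 0.028 for Crkl, -0.014 to 0.10 for Pafah1b1, 0.05 to 0.29 for Vldlr, 0.08 to 0.27 for Crk, 0.20 to 0.44 for Cdk5r1, 0.15 to 0.44 for Adamts3, -0.75 to -0.33 for Furin, -0.66 to 0.43 for Elob, and 0 members called throughout. For litter 2 against litter 1 it gave -0.086 to 0.010 for Crkl, -0.10 to 0.016 for Lrp8 and -0.41 to -0.15 for Vldlr.

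None of the other values that changed sign passed, and the cause was not tested. Crkl had 0.0074 with upper quartile scaling, 0.0048 with the striatum score, 0.060 in litter 2 alone, 0.027 without the 2 shallowest libraries, 0.0023 with DESeq2 and 0.010 with limma-voom. Pafah1b1 had -0.0018 with no filter, -0.036 with no litter term, -0.0047 with no covariates and -0.035 with the striatum score. Vldlr had -0.0025 without both covariates, -0.082 without the 2 shallowest libraries and -0.084 at equal depth. Crk had -0.067 in litter 1 alone and -0.0029 at equal depth, Rapgef1 -0.0068 at equal depth, and Lrp8 0.00049 with the striatum score. Elob had 0.023 without both covariates and 0.54 in litter 1 alone. For litter, Crkl had 0.028 in females and 0.26 at equal depth, and Lrp8 0.0067 at equal depth. No paired analysis was possible because the labels give no replicate numbers that pair libraries. Among the members depth limits Vldlr, Crk and Crkl most, with as few as 49, 57 and 43 counts in a library. Furin, Thbs1 and Elob of the wider pathway had as few as 7, 17 and 20 counts.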
